A study of Mus musculus with 6 samples.

Results

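The genes described here are 10 mouse receptors for purine nucleotides, adenosine and prostaglandin E2: P2rx4, P2rx7, P2ry6, P2ry14, P2ry10, Adora2a, Adora2b, Adora3, Ptger2 and Ptger4. They were chosen by name, with earlier results of these data known. Of these, 8 had a probe set on the array that carried exactly 1 gene symbol, among 22180 genes so named, and each of the 8 had 1 such probe set. Adora2a and Adora2b were not analysed here. Of the 8, 7 passed the filter on dim signals with 15529 genes in all, and Adora3 did not.

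Gene expression was measured on Affymetrix arrays in macrophages sorted by flow cytometry from digested ear skin of C57Bl/6 mice aged 2 weeks. The cells were split by CX3CR1, the fractalkine receptor, into CX3CR1low, CX3CR1int and CX3CR1high macrophages, with 2 samples of each subset. Each sample was a pool from 4 mice, and the samples of a subset came from 2 independent litters kept without ear clipping. All mice were Cx3cr1+/gfp, in which GFP replaces 1 copy of Cx3cr1, so that every subset came from heterozygous animals, and no treatment is listed. Sample names for the CX3CR1high subset also use the word bright.

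The sort gene had log2 signals of 5.87 and 7.01 in the CX3CR1low samples, 7.05 and 6.84 in the CX3CR1int samples, and 10.55 and 9.51 in the CX3CR1high samples. Its CX3CR1low and CX3CR1int samples overlapped. The macrophage genes Adgre1 (10.63 to 10.95) and Csf1r (11.15 to 11.58) were bright in all 6 samples, and 12 of 12 core macrophage markers were above the dim level. The array medians ran from 4.84 to 4.94. Replicates 1 and 2 differed in sex composition in every subset: Xist, the transcript of the inactive X chromosome, was at 7.39 to 7.97 in replicates 1 and at 10.99 to 11.39 in replicates 2. That difference is part of the replicate spread.

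ATP and other nucleotides leave damaged, stretched or activated cells and are read by 2 receptor families. P2X receptors are ion channels opened by ATP, and prolonged opening of P2X7 lets potassium out of macrophages, a trigger of the NLRP3 inflammasome. P2Y receptors couple to G proteins: P2Y6 binds UDP and promotes phagocytosis in microglia and macrophages, P2Y14 binds UDP-glucose and other UDP-sugars, and P2Y10, a P2Y by name and sequence, responds to lysophosphatidylserine. Ectoenzymes break ATP down to adenosine, which acts on the adenosine receptors. Prostaglandin E2, a product of cyclooxygenase, acts on macrophages mainly through EP2 (Ptger2) and EP4 (Ptger4), which raise cyclic AMP and dampen or redirect inflammatory output.

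No receptor differed between the subsets at the threshold used, an adjusted p below 0.05 in limma over all genes tested. The nearest were lower in the CX3CR1high cells: P2ry14, a UDP-glucose receptor, and the ATP-gated channels P2rx4 and P2rx7. Ptger2 pointed the other way, with both CX3CR1high samples above the other 4. For P2ry6, Ptger2, Ptger4 and the dim Adora3, the widest gap between the 2 samples of a subset exceeded the widest gap between subset means (0.91 against 0.43, 0.94 against 0.66, 0.59 against 0.38 and 0.58 against 0.30).

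Sequence upstream of P2rx4, P2rx7 and P2ry14 is shown because these were the receptors with an unadjusted p below 0.05 in a comparison. RefSeq's table held promoters for 8 of the 10 genes, on build GRCm38.p6, and each line gives the 250 bases before the outermost start, 5′ to 3′ on the gene's strand. P2rx4 is at chr5:122707294-122707543 (plus strand), P2rx7 at chr5:122643677-122643926 (plus strand) and P2ry14 at chr3:59153493-59153742 (minus strand). Capitals mark matches, on either strand, to 3 short motifs: the core of the cyclic AMP response element (TGACG), the AP-1 site (TGANTCA) and a core of the site of PU.1, a myeloid transcription factor (GAGGAAG). None of the 3 motifs overlapped another in these windows.
P2rx4: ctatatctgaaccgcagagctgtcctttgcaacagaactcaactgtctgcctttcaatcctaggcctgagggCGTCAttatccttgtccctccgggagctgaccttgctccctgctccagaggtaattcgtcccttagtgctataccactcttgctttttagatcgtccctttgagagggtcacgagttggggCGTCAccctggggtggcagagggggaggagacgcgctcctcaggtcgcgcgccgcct
P2rx7: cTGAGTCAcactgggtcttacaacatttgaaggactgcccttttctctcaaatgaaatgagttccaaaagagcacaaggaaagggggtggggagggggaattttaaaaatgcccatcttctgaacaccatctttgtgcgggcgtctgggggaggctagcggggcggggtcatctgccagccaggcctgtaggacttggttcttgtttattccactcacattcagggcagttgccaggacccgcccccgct
P2ry14: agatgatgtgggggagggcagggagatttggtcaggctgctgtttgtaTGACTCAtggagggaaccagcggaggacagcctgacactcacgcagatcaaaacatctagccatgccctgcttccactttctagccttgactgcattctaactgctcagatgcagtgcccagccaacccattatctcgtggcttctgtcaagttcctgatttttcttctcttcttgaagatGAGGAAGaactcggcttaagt

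The P2rx4 window held 2 matches to the cyclic AMP response element core, at 178 to 174 and 57 to 53 bases before the start, both on the opposite strand. The P2rx7 window held 1 AP-1 match, at 249 to 243 bases before the start. The P2ry14 window held an AP-1 match at 202 to 196 bases and a PU.1 core at 21 to 15 bases before the start. Among all 32851 windows of this length, 17.8% held TGACG, 6.75% held TGANTCA and 10.6% held GAGGAAG. Of the 8 receptors with a promoter, 1 held TGACG, 4 held TGANTCA (P2rx7, P2ry14, P2ry10 and Adora3) and 2 held GAGGAAG (P2ry14 and Adora3). A match describes the letters of a window and says nothing of binding.

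P2rx4 and P2rx7 are neighbours on chromosome 5, with no protein-coding gene between them in RefSeq. P2rx4, a channel of the plasma membrane and lysosomes, had log2 signals of 9.56 and 9.27 in the CX3CR1low samples, 9.03 and 9.30 in the CX3CR1int samples, and 8.88 and 8.90 in the CX3CR1high samples. Both CX3CR1high samples were below all 4 others, and the other 2 subsets overlapped. The mean was 8.89 ± 0.01 in CX3CR1high and 9.42 ± 0.21 in CX3CR1low cells (SD, n = 2), a log2 difference of -0.53 (SE 0.17, 95% interval -0.92 to -0.13). This did not pass the test (limma adjusted p = 0.355, and 0.285 with a term for the replicate number, called the replicate block below).

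P2rx7, the channel tied to inflammasome activation, had signals of 9.77 and 10.06 (CX3CR1low), 9.57 and 9.67 (CX3CR1int), and 9.46 and 9.33 (CX3CR1high). The 3 subsets did not overlap, in the order CX3CR1low, CX3CR1int, CX3CR1high from high to low. From 9.92 ± 0.21 in CX3CR1low to 9.40 ± 0.09 in CX3CR1high cells (SD, n = 2) the difference was -0.52 (SE 0.16, interval -0.88 to -0.16), or 1.43-fold lower (adjusted p = 0.297, and 0.230 with the replicate block). Neighbours in that order differed less, by -0.30 between CX3CR1int and CX3CR1low (interval -0.66 to 0.07) and by -0.23 between CX3CR1high and CX3CR1int (interval -0.59 to 0.14). Of all pairs of receptors, P2rx4 and P2rx7 were among the closest in pattern: their signals, each centred on its gene's mean, differed by 0.15 on average over the 6 samples. P2ry6 and Ptger4 also differed by 0.15. Within subsets P2rx4 and P2rx7 did not always move together. Replicate 1 minus replicate 2 was 0.29 and -0.29 in CX3CR1low cells. It was -0.27 and -0.10 in CX3CR1int cells, and -0.02 and 0.13 in CX3CR1high cells.

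**Figure D1:**
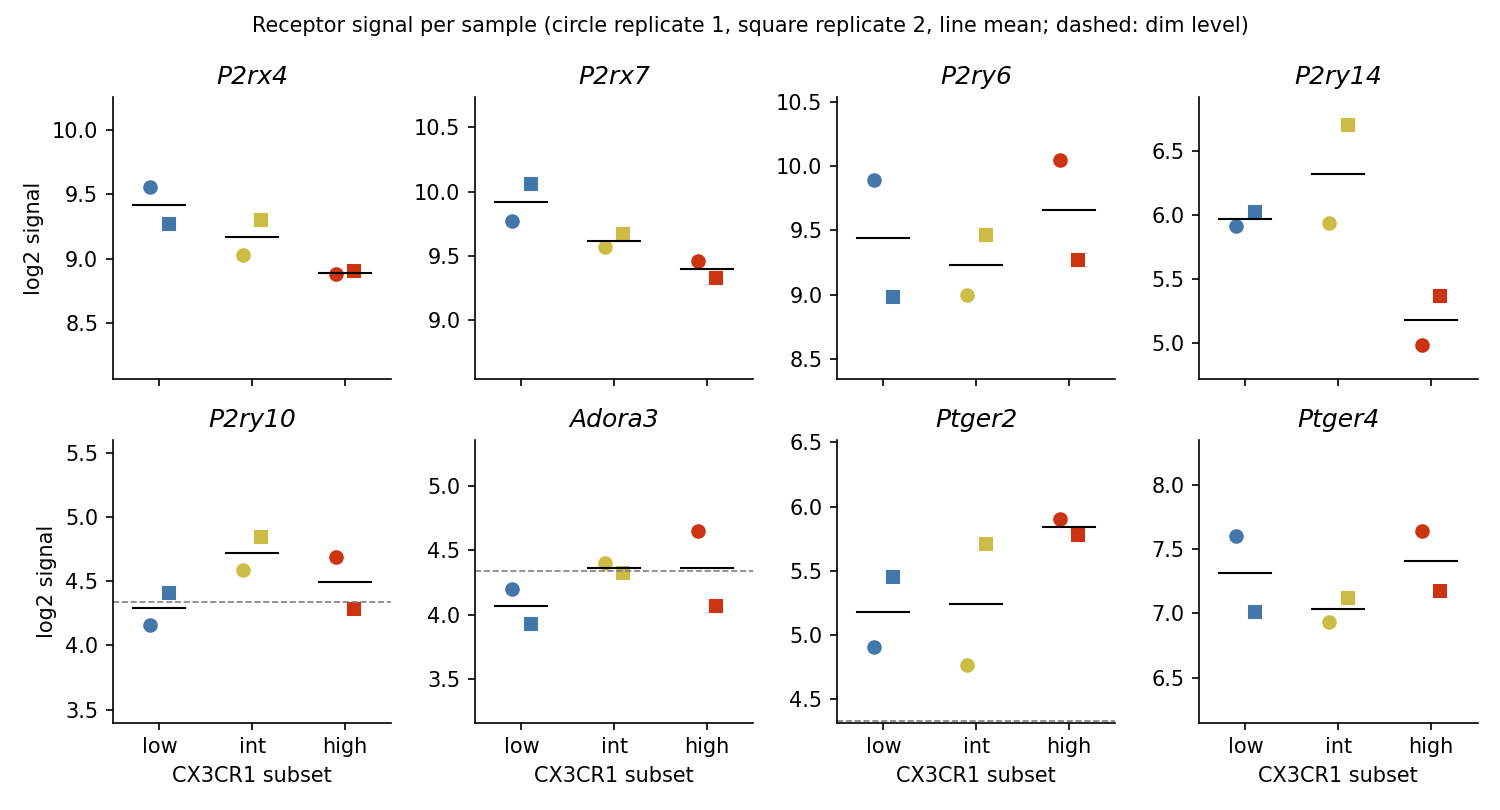
Log2 signal (vertical axis) of the 8 measured receptors in the 3 CX3CR1 subsets (horizontal axis); circles are replicates 1, squares replicates 2, bars subset means, and the dashed line is the dim level of 4.335. Each panel has its own range, so heights are not comparable between genes; P2ry14 is lowest in both CX3CR1high samples (4.99 and 5.37), and Adora3 and P2ry10 lie near the dim level.

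P2ry14 showed the largest difference of the 8. Its signals were 5.91 and 6.02 in the CX3CR1low samples, 5.94 and 6.70 in the CX3CR1int samples, and 4.99 and 5.37 in the CX3CR1high samples. Both CX3CR1high samples were below all 4 others, while CX3CR1int and CX3CR1low overlapped. The mean of 5.18 ± 0.27 in CX3CR1high was 2.20-fold below the 6.32 ± 0.54 of CX3CR1int cells (SD, n = 2), a log2 difference of -1.14 (SE 0.26, interval -1.73 to -0.55). Its unadjusted limma p was 0.00194 and its adjusted p 0.221, or 0.0771 with the replicate block. Against CX3CR1low cells (5.97 ± 0.08) the difference was -0.79 (SE 0.26, interval -1.38 to -0.19, adjusted p = 0.361, and 0.154 with the replicate block). By replicate number the differences were -0.95 and -1.33 against CX3CR1int and -0.92 and -0.65 against CX3CR1low cells. Their shared sign follows from both CX3CR1high samples being below all 4 others.

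P2ry14 lies on chromosome 3, as do P2ry13 and P2ry12, receptors for ADP, which have no protein-coding gene between them in RefSeq. P2ry12 had signals of 9.54 and 9.05, 9.47 and 9.32, and 9.36 and 9.31 in CX3CR1low, CX3CR1int and CX3CR1high cells, and P2ry13 had 7.32 and 6.06, 6.51 and 6.56, and 6.69 and 6.71. Neither stood apart in the CX3CR1high cells: from CX3CR1int to CX3CR1high the differences were -0.06 for P2ry12 (interval -0.49 to 0.37) and 0.17 for P2ry13 (interval -0.62 to 0.95). How these differ from that of P2ry14 was not tested. Med12l, a Mediator subunit gene that overlaps P2ry14 in RefSeq, had a CX3CR1high minus CX3CR1int difference of 0.23 (adjusted p = 0.843).

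The 3 tested genes with the pattern most like that of P2ry14 were Serpinb1a, a serpin that inhibits neutrophil proteases, Abca6, a lipid transporter family member, and Aldh6a1, a mitochondrial enzyme of valine breakdown. Centred on their means, each differed from P2ry14 by 0.13 on average over the 6 samples. Serpinb1a was at 5.99 and 5.85 (CX3CR1low), 6.03 and 6.39 (CX3CR1int), and 4.86 and 5.16 (CX3CR1high). All 3 were lowest in both CX3CR1high samples and highest in replicate 2 of CX3CR1int, as P2ry14 was. They were picked for that likeness out of 15529 genes, so their values are a description.

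**Figure D2:**
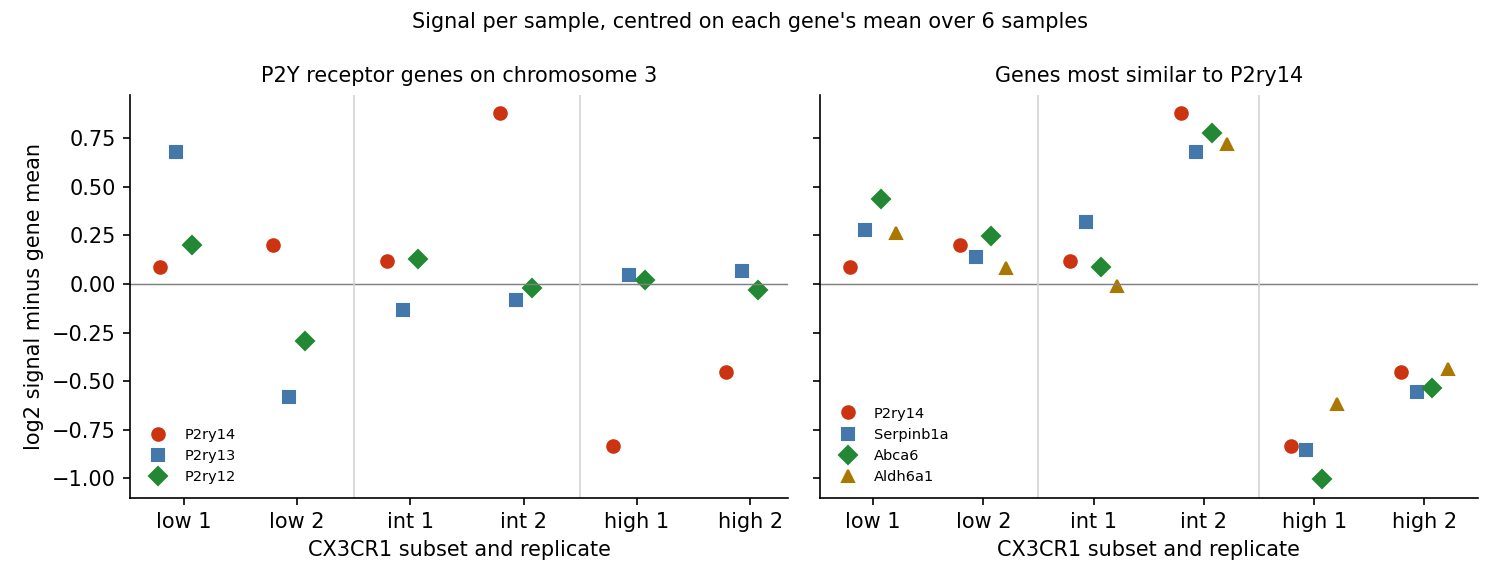
Log2 signal minus each gene's mean over 6 samples (vertical axis) by subset and replicate (horizontal axis), for P2ry14 with P2ry13 and P2ry12, on the same chromosome (left) and with the 3 genes most similar to it (right). The CX3CR1high points of P2ry14 fall with Serpinb1a, Abca6 and Aldh6a1 below 0, while P2ry12 and P2ry13 stay near 0 there.

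P2ry6, the UDP receptor, had signals of 9.89 and 8.98 in the CX3CR1low samples, 9.0 and 9.46 in the CX3CR1int samples, and 10.05 and 9.27 in the CX3CR1high samples. The subsets overlapped in all 3 comparisons. Its 2 CX3CR1low samples were 0.91 apart and its 2 CX3CR1high samples 0.78 apart, against at most 0.43 between subset means. From CX3CR1low to CX3CR1high the difference was 0.23 (interval -0.54 to 0.99, adjusted p = 0.898), an interval that reaches almost 2-fold in the higher direction.

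P2ry10, the lysophosphatidylserine receptor, had weak signals of 4.16 and 4.41 (CX3CR1low), 4.59 and 4.84 (CX3CR1int), and 4.69 and 4.28 (CX3CR1high), beside a dim level of 4.335. Both CX3CR1int samples exceeded both CX3CR1low samples, by 0.43 on average (interval -0.03 to 0.89, adjusted p = 0.996), and CX3CR1high cells overlapped both. Since the CX3CR1low mean of 4.29 lay under the dim level, no fold is given. P2ry10 is on the X chromosome beside its paralogue P2ry10b, whose signals ran from 6.29 to 6.69 with a CX3CR1high minus CX3CR1low difference of 0.18 (adjusted p = 0.851). Gpr174, next in line and also a lysophosphatidylserine receptor, was dim at 2.51 to 3.02.

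Of the adenosine receptors only Adora3, the A3 receptor, had a usable probe set, and it was dim. Its signals were 4.20 and 3.93 in the CX3CR1low samples, 4.40 and 4.32 in the CX3CR1int samples, and 4.65 and 4.07 in the CX3CR1high samples. They straddled the dim level, with 2 samples above it and 4 below, so that no order of the subsets is read from them. Adora3 overlaps the gene Tmigd3 in RefSeq.

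Ptger2, which encodes EP2, had signals of 4.91 and 5.45 (CX3CR1low), 4.77 and 5.71 (CX3CR1int), and 5.90 and 5.78 (CX3CR1high). Both CX3CR1high samples were above the other 4, though by only 0.07 above replicate 2 of CX3CR1int. The mean of 5.84 ± 0.08 in CX3CR1high exceeded the 5.18 ± 0.38 of CX3CR1low cells (SD, n = 2) by 0.66 (SE 0.31, interval -0.03 to 1.35), or 1.58-fold. This did not pass the test (adjusted p = 0.545, and 0.351 with the replicate block). The difference was 0.99 in replicates 1 and 0.33 in replicates 2.

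Ptger4, which encodes EP4, had signals of 7.60 and 7.01 in the CX3CR1low samples, 6.93 and 7.12 in the CX3CR1int samples, and 7.64 and 7.17 in the CX3CR1high samples. CX3CR1high and CX3CR1low cells overlapped, with a difference of 0.10 (interval -0.46 to 0.66, adjusted p = 0.943), which leaves room for less than a 2-fold change either way. The CX3CR1high samples were above both CX3CR1int samples by 0.38 on average (interval -0.18 to 0.94, adjusted p = 0.770), by 0.71 in replicates 1 and 0.05 in replicates 2. Ptger4 varied from sample to sample much as P2ry6 did, with a mean gap of 0.15 between their centred signals.

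Between CX3CR1high and CX3CR1low cells, 0 of the 7 tested receptors were called, beside 62 genes or 0.399% of all tested, and 0 with the replicate block, beside 154 genes or 0.992%. Between CX3CR1high and CX3CR1int cells, 0 of 7 were called beside 22 genes or 0.142%, and with the block 0 beside 47 or 0.303%. Between CX3CR1int and CX3CR1low cells, 0 of 7 were called beside 1 gene or 0.00644%, and with the block 0 beside 0 or 0.00%. By the F test for any difference among the subsets the count was 0 of 7 beside 29 genes or 0.187%. A share of 0 is near each of these backgrounds.

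At an unadjusted limma p below 0.05, 3 of 7 receptors differed between CX3CR1high and CX3CR1low cells, all lower (P2rx4, P2rx7 and P2ry14), beside 9.65% of all genes in either direction and 4.84% lower. With the block Ptger2 joined them, at 4 of 7 beside 11.3%. Between CX3CR1high and CX3CR1int cells it was 1 of 7 (P2ry14) beside 7.89%, and with the block 2 (P2ry14 and Ptger2) beside 9.59%. Between CX3CR1int and CX3CR1low cells it was 0 of 7 beside 4.89%. The 3 comparisons share samples and are not independent of each other. Because the receptors were chosen with earlier results of these data known, these counts and those of non-overlap below are descriptions beside their backgrounds.

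Samples of the 2 subsets did not overlap for 4 of 7 receptors between CX3CR1high and CX3CR1low cells, beside 38.3% of all genes. Between CX3CR1high and CX3CR1int cells they did not overlap for 5 of 7, beside 36.8%, and between CX3CR1int and CX3CR1low cells for 2 of 7, beside 31.4%. The middle count was the farthest above its background, and the last was near it. For 4 of 7 receptors (P2rx4, P2rx7, P2ry10 and Ptger4) the 95% intervals lay within 2-fold in all 3 comparisons, beside 85.4% of all genes. The CX3CR1low mean of P2ry10 (4.29) was under the dim level of 4.335. Its intervals, and its place in the CX3CR1int and CX3CR1low count above, are therefore not read as a result about that receptor. For P2ry6, P2ry14 and Ptger2 a 2-fold difference lies inside at least 1 interval.

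**Figure D3:**
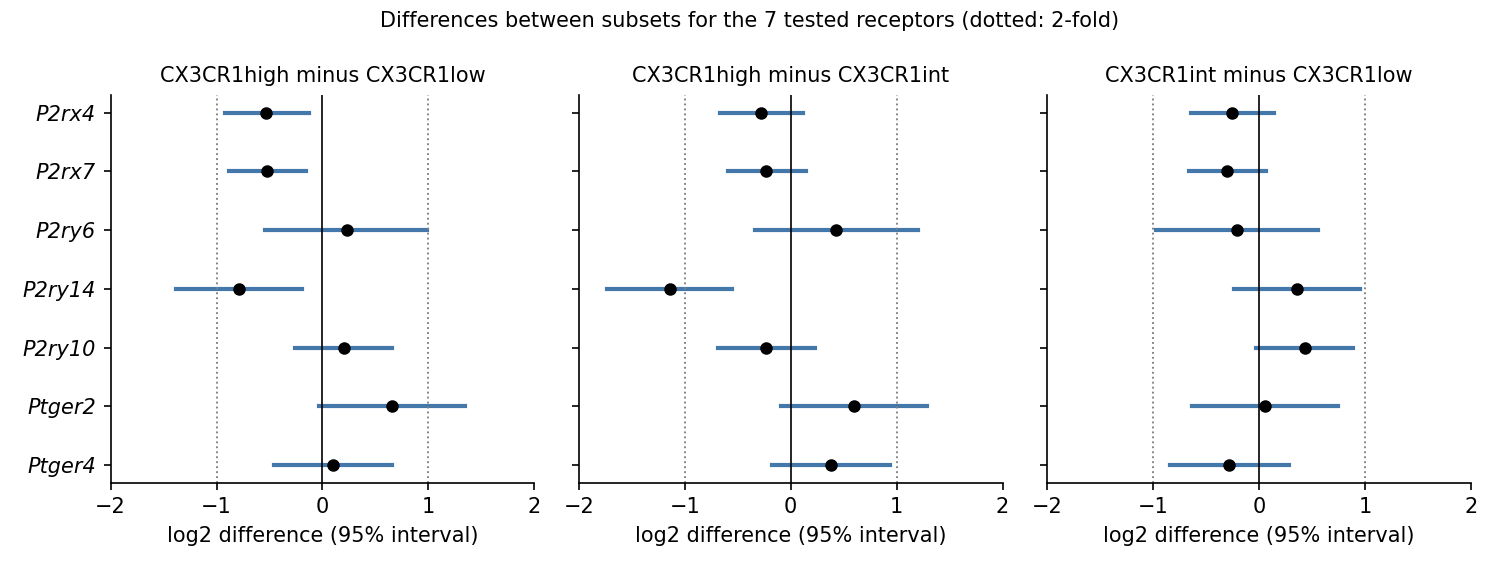
Log2 difference between subsets (horizontal axis) for the 7 tested receptors (vertical axis) in the 3 comparisons; points are differences of means, bars 95% intervals, dotted lines 2-fold. In CX3CR1high minus CX3CR1low the intervals of P2rx4, P2rx7 and P2ry14 lie below 0; P2ry14 reaches -1.14 in CX3CR1high minus CX3CR1int.

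Fibroblast and mast cell markers also averaged lower in the CX3CR1high samples than in all other samples. Keratinocyte markers averaged lower there than in the CX3CR1low samples and overlapped with the CX3CR1int samples. The part of these markers in the lower signals of P2rx4, P2rx7 and P2ry14 was not tested. Fibroblast markers averaged 7.46 and 8.05 (CX3CR1low), 7.18 and 7.26 (CX3CR1int), and 6.82 and 6.84 (CX3CR1high), with 8 of 9 lower from CX3CR1low to CX3CR1high. Of these 0 were called, and 5 were with the replicate block: Col3a1 (adjusted p = 0.0298), Pcolce (0.0337), Col1a1 (0.0453), Dcn (0.0484) and Col1a2 (0.0492). Keratinocyte markers averaged 6.86 and 7.57, 6.49 and 6.81, and 6.40 and 6.58 in the same order, with 10 of 10 lower and Krt10 called (-1.46, adjusted p = 0.0439), joined by Krtdap with the block (adjusted p = 0.00995). Mast cell markers averaged 5.49 and 5.24, 4.99 and 4.98, and 4.30 and 4.24. Of their 6 tested genes all were lower and Cpa3 (-3.37, adjusted p = 0.00512), Mcpt4 (-2.26, 0.0168) and Cma1 (-1.87, 0.0130) fell, while Tpsab1, Fcer1a and Ms4a2 were dim and the CX3CR1high mean of Cpa3 (4.07) lay under the dim level. From CX3CR1int to CX3CR1high 1 of the 6, Cpa3, was called, and with the block 2 were, with Mcpt4 (adjusted p = 0.0254). Cd163, on the list of core macrophage genes, of which 0 were called from CX3CR1low to CX3CR1high, was called lower with the block (-0.91, adjusted p = 0.0305). Of that list 11 of 12 genes were lower in that comparison, with a median of -0.14. So were 4 of 5 melanocyte markers (median -0.56) and 4 of 4 tested endothelial markers (median -0.20), of which 0 were called. Their part in the receptor signals was not tested either.

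The 4 tested monocyte genes did not move together from CX3CR1low to CX3CR1high cells, with 2 higher and 2 lower. From CX3CR1int to CX3CR1high cells 3 were lower and 1 higher, and from CX3CR1low to CX3CR1int cells all 4 were higher. The 5 monocyte markers with a probe set, including the dim Chil3, averaged 5.16 and 6.34 (CX3CR1low), 6.03 and 6.77 (CX3CR1int), and 5.06 and 5.36 (CX3CR1high). That is the order of subset means of P2ry14, and their part in its signals was not tested. Ccr2, the receptor for the monocyte attractant CCL2, had its highest mean in CX3CR1high cells, at 5.56 and 7.15 (CX3CR1low), 6.99 and 7.05 (CX3CR1int), and 7.92 and 7.26 (CX3CR1high), with 1.24 over CX3CR1low (adjusted p = 0.401) and 0.57 over CX3CR1int cells (adjusted p = 0.824). Ly6c2, another of them, had the same order of subset means as P2ry14, with 6.48 and 7.11 in the CX3CR1low samples, 7.35 and 7.90 in the CX3CR1int samples, and 3.36 and 4.92 in the CX3CR1high samples, and was called lower in CX3CR1high than in CX3CR1int cells (-3.49, adjusted p = 0.0421). Its CX3CR1high mean of 4.14 lay under the dim level, so the size of that difference rests on a signal too low to be measured well. With the block Ly6c2 was also called from CX3CR1low to CX3CR1high (adjusted p = 0.00484), against 0 of the 4 without it. Leaving out replicate 1 of CX3CR1high ended each call given above without the block. These were Krt10, Cpa3, Mcpt4 and Cma1 against CX3CR1low, and Cpa3 and Ly6c2 against CX3CR1int. The calls of Mcpt4 and Cma1 also ended without replicate 1 of CX3CR1low or replicate 2 of CX3CR1high. That of Krt10 ended without any sample but replicate 1 of CX3CR1low, and that of Ly6c2 without any but replicate 2 of CX3CR1high. Against CX3CR1int, Cpa3 lost its call without any 1 of the CX3CR1int or CX3CR1high samples, and its difference ranged from -2.64 to -2.14 with 1 sample left out. With every sample kept, that call was lost with no dim filter (limma adjusted p = 0.0598) and with every probe set on its own (0.0930). Krt10 and Ly6c2 also lost their calls in several processing settings that kept every sample, and were called in 5 and 6 of the 16 alternatives.

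Markers of dendritic cells lay slightly higher in the CX3CR1high samples, and their part in the higher signals of Ptger2, Ptgs2, Il1a and Il1b was not tested. They averaged 5.49 and 5.54 (CX3CR1low), 5.81 and 5.71 (CX3CR1int), and 5.93 and 5.78 (CX3CR1high), with 4 of 6 higher from CX3CR1low to CX3CR1high and 0 called. Among them Ccr7, the chemokine receptor of migrating dendritic cells, read 5.74 and 5.64, 6.83 and 6.73, and 7.29 and 6.72 (1.32 over CX3CR1low, adjusted p = 0.0510, called with the block at 0.0239). The 2 that were lower were Zbtb46 (mean of 5.92 in CX3CR1low and 5.50 in CX3CR1high cells) and Cd209a (7.75 and 7.54). Of the 4 Langerhans cell markers 1 was higher, Cd207 (langerin), at 6.72 and 6.48, 6.00 and 6.85, and 7.57 and 8.07 (1.22, adjusted p = 0.181). The 3 lower ones were Cdh1 (mean of 7.16 in CX3CR1low and 6.59 in CX3CR1high cells), Epcam (5.43 and 5.27) and Cd1d1 (5.04 and 4.95). In sorted pools, fewer cells of a type and less RNA per cell cannot be told apart.

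Among the other purine receptors, 0 of 8 tested genes were called in any comparison, with a median CX3CR1high minus CX3CR1low difference of 0.03 beside 0.01 over all genes. The 3 with the smallest p were P2rx1, an ATP-gated channel (0.32, interval -0.15 to 0.79), P2ry1, an ADP receptor (-0.28, interval -0.69 to 0.14), and Gpr34, a lysophosphatidylserine receptor (0.23, interval -0.21 to 0.67).

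Genes that release, cleave and take up nucleotides were likewise uncalled, at 0 of 11 for ATP release channels and 0 of 12 for nucleotide breakdown and adenosine handling. Entpd1 (CD39), which removes extracellular ATP and ADP, was at 9.77 and 9.70 (CX3CR1low), 10.17 and 9.80 (CX3CR1int), and 10.33 and 10.17 (CX3CR1high), a CX3CR1high minus CX3CR1low difference of 0.52 (interval 0.14 to 0.89, adjusted p = 0.327). Its mean was highest in the subset in which P2rx4 and P2rx7 had their lowest means, with none of the 3 past the threshold. Slc28a2, a concentrative nucleoside transporter, had 6.62 and 7.03, 7.15 and 7.05, and 5.88 and 6.45, with -0.94 from CX3CR1int to CX3CR1high (adjusted p = 0.305), the same order of subset means as P2ry14. Pnp, which degrades purine nucleosides, differed by -0.37 from CX3CR1low to CX3CR1high (adjusted p = 0.582). Of the channels, the connexins Gja1 (-1.13, adjusted p = 0.203) and Gjb2 (-1.43, adjusted p = 0.388) were lower and Lrrc8d, a subunit of the volume-regulated anion channel, higher (0.80, adjusted p = 0.216) in CX3CR1high than in CX3CR1low cells. Gjb2 read 7.26 in replicate 2 of CX3CR1low against 4.52 to 5.42 in the other 5 samples, and keratinocyte markers were highest in that sample too, at 7.57, whose part in that value was not tested. Without that sample the difference of Gjb2 was -0.51, and without replicate 1 of CX3CR1low it was -2.35.

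The list of genes that act with or after P2X7 in inflammasome activation gave the only calls among the pathway lists. Of its 13 tested genes, which do not include P2rx7 itself, 5 were higher and 8 lower from CX3CR1low to CX3CR1high cells (median -0.09). In that comparison 2 were called higher and 0 lower. The 2 called were the interleukin 1 genes, whose products leave macrophages on inflammasome activation. Il1a was at 9.61 and 9.47 in the CX3CR1low samples, 9.94 and 10.01 in the CX3CR1int samples, and 10.68 and 10.66 in the CX3CR1high samples, 2.19-fold higher in CX3CR1high than in CX3CR1low cells (log2 1.13, SE 0.14, adjusted p = 0.0168). Il1b was at 10.76 and 11.03, 11.27 and 11.11, and 11.80 and 11.74, or 1.83-fold higher (log2 0.88, SE 0.13, adjusted p = 0.0392). The 3 subsets did not overlap for either, in the reverse of the order of P2rx7. Il1a was called in 12 of 16 alternative settings and Il1b in 5. Neither was called when any 1 of the CX3CR1high or CX3CR1low samples was left out (adjusted p from 0.0744 to 0.272), and Il1b was not called without replicate 1 or 2 of CX3CR1int (adjusted p = 0.0659 and 0.0610).

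The sensor Nlrp3 was at 8.68 and 8.43, 9.20 and 8.44, and 9.59 and 9.50, a difference of 0.99 that did not pass (interval 0.44 to 1.54, adjusted p = 0.191, and 0.0602 with the block). Casp1 (-0.21, adjusted p = 0.873) and Pycard (-0.09, adjusted p = 0.940), its protease and adaptor, had subsets that overlapped. Gsdmd, the pore former of pyroptosis, differed by -0.52 (adjusted p = 0.433), and Txnip, also on the list, by -0.52 (adjusted p = 0.316). Casp1, Pycard, Gsdmd and Txnip were singled out after their values were seen.

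Upstream of EP2 and EP4, 0 of 13 genes of prostaglandin synthesis, transport and breakdown were called. Ptgs2, the inducible cyclooxygenase, was at 8.75 and 9.84 (CX3CR1low), 9.62 and 10.08 (CX3CR1int), and 10.38 and 10.73 (CX3CR1high). Its CX3CR1high samples were above all others, by 1.26 over CX3CR1low cells (interval 0.53 to 1.99), with adjusted p = 0.207, and with the replicate block it was called (adjusted p = 0.0245). The difference of Ptgs2 was 0.72 without replicate 1 of CX3CR1low and 1.81 without replicate 2 of that subset. Ptgs2 and Ptger2 were thus both highest in the 2 CX3CR1high samples. Cbr1, a carbonyl reductase acting on prostaglandins, was lower there (-0.86, adjusted p = 0.278, and -0.52 without replicate 1 of CX3CR1high), and Slco2a1, the prostaglandin transporter, was lower in CX3CR1int than in CX3CR1low cells (-0.80, adjusted p = 0.880). Of the other prostanoid and leukotriene receptors 0 of 7 were called. Ptger3, a further prostaglandin E2 receptor, differed by 0.40 from CX3CR1low to CX3CR1high (adjusted p = 0.517), Ptgdr, a prostaglandin D2 receptor, by 0.46 from CX3CR1int to CX3CR1high (adjusted p = 0.633), and Ltb4r1, a leukotriene B4 receptor, by -0.48 (adjusted p = 0.611).

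Downstream, 0 of 25 genes of cyclic AMP signalling and 0 of 16 of Gq and calcium signalling were called, with median CX3CR1high minus CX3CR1low differences of 0.01 and 0.06. Prkar2b, a regulatory subunit of protein kinase A, had 7.35 and 6.14 in the CX3CR1low samples, 6.55 and 6.68 in the CX3CR1int samples, and 4.89 and 5.52 in the CX3CR1high samples. Both CX3CR1high samples were lowest, by -1.54 against CX3CR1low (interval -2.37 to -0.71, adjusted p = 0.179) and -1.41 against CX3CR1int cells (adjusted p = 0.322). The difference of Prkar2b from CX3CR1low was -0.94 without replicate 1 of CX3CR1low, at 7.35 the highest sample, and -2.15 without replicate 2 of that subset. The coactivator Crtc3 (-0.47, adjusted p = 0.596) and the catalytic subunit Prkaca (-0.36, adjusted p = 0.629) were lower in CX3CR1high than in CX3CR1int cells. Among Gq effectors, Prkcd, a protein kinase C, differed by 0.41 (adjusted p = 0.565) and Stim1, the calcium sensor of the endoplasmic reticulum, by -0.46 (adjusted p = 0.672) in that comparison, and Plcb2, a phospholipase, by 0.46 from CX3CR1low to CX3CR1high (adjusted p = 0.591).

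**Figure D4:**
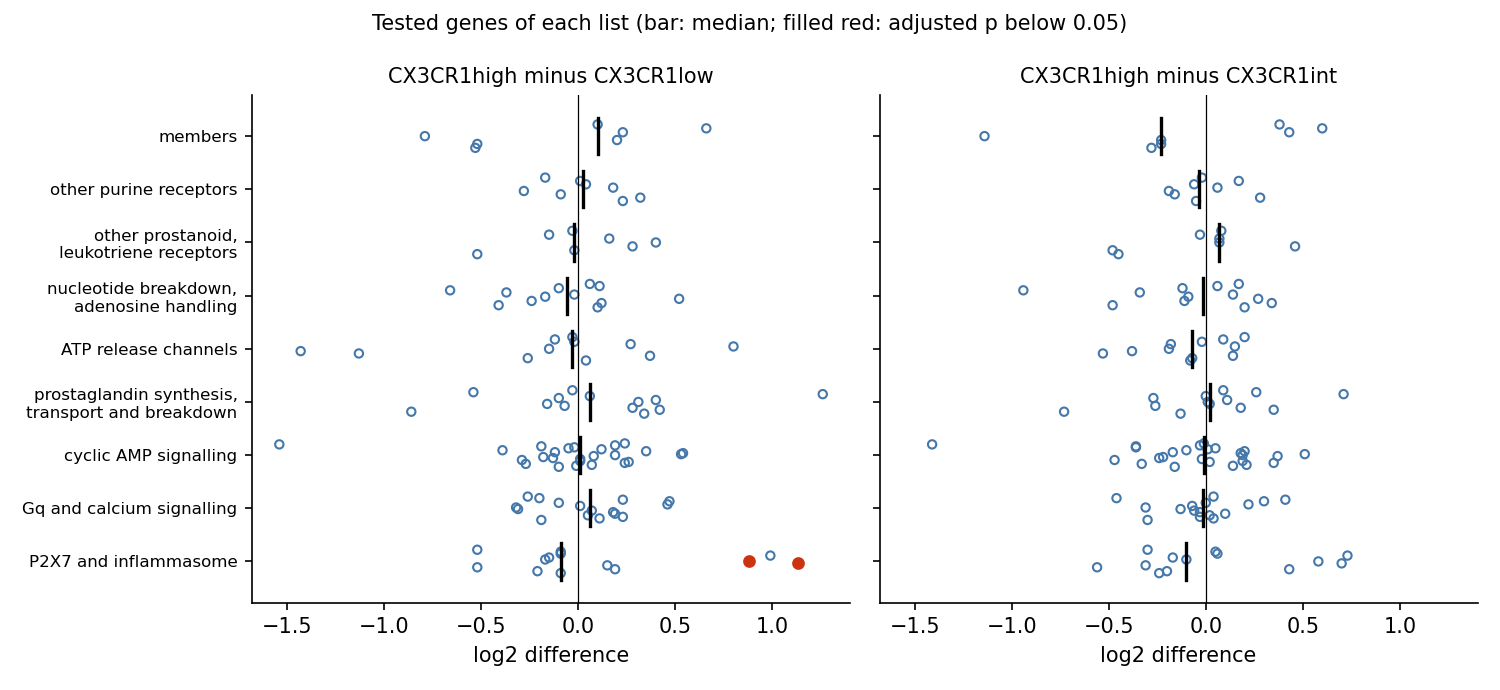
Log2 difference (horizontal axis) of the tested receptors and of 8 pathway lists (vertical axis) for CX3CR1high minus CX3CR1low (left) and CX3CR1high minus CX3CR1int (right); each circle is a gene, bars are medians, and filled red circles were called. The 2 filled circles are Il1b and Il1a; the row named members holds the 7 tested receptors, and the medians of the 8 pathway lists lie between -0.10 and 0.07.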

How the data were processed

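Per the submitters' processing notes, the authors made the deposited log2 signals with RMA in Affymetrix Expression Console 1.4, after whole-transcriptome amplification of RNA from sorted cells. All 6 samples were used as deposited, and the small number of arrays limits the precision. Of 34390 probe sets, 23521 carried 1 gene symbol, 1814 several and 9055 none; the brightest of a gene's single-symbol probe sets stood for it. A gene counted as dim, and was left out, if its mean signal was under the 30th percentile (4.335). The array's genome build is not given in the sources used here.

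Subset means were compared in R 4.3.3 with limma 3.58.1 (intensity trend, two-sided moderated tests, Benjamini-Hochberg adjustment over 15529 genes), with 3 residual degrees of freedom, 5.77 from the prior and a median SE of 0.193. Calls needed an adjusted p below 0.05. The script was tested on simulated data. Deviations of same-numbered samples from their subset means correlated at 0.146, 0.136 and 0.178 for the 3 pairs of subsets, so the replicate number was taken to pair samples, and the replicate block (2 residual degrees of freedom) is printed where it moves a count. The main fit has no term for that pairing, which stays in its residual spread.

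Receptors and gene lists were chosen with earlier results of these data known. All measured receptors are named, and from each pathway list the called genes and those with the smallest p, up to 3. Median, filter, normalization, probe set, weight, subset and leave-one-out alternatives were run. Figures were drawn in Python 3.11.15 with matplotlib 3.10.9.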

Additional observations from a re-analysis of the deposited data

How the results depend on the processing

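No receptor was called in any of 384 differences recomputed under 16 alternative settings; 369 kept their direction or stayed within the replicate spread, 11 changed sign and 4 moved, all of these on leaving out 1 sample. P2ry14 (CX3CR1high minus CX3CR1int) ranged from -1.52 to -0.76 with 1 sample left out, with adjusted p from 0.0771 to 0.892 over all settings, and P2rx7 (CX3CR1high minus CX3CR1low) from -0.67 to -0.38, with adjusted p from 0.230 to 0.664. For P2rx4 in that comparison the adjusted p ranged from 0.285 to 0.803. Differences that changed sign or moved by more than the replicate spread when 1 sample was left out ranged, for CX3CR1high minus CX3CR1low, from -0.23 to 0.68 (P2ry6), -0.20 to 0.40 (Ptger4), -0.01 to 0.41 (P2ry10) and 0.01 to 0.59 (Adora3). For CX3CR1int minus CX3CR1low they ranged from -0.66 to 0.25 (P2ry6), -0.41 to 0.53 (Ptger2), -0.58 to 0.02 (Ptger4) and -0.03 to 0.74 (P2ry14), and for CX3CR1high minus CX3CR1int from -0.29 to 0.29 (Adora3).

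Genes called between CX3CR1high and CX3CR1low cells numbered 62 (33 higher, 29 lower), 154 with the replicate block (76 higher, 78 lower), 26 with no dim filter (10 and 16), 40 with arrays centred on a common median (17 and 23), 18 with every probe set on its own (8 and 10) and 39 with only the 2 subsets compared (18 and 21). Between CX3CR1high and CX3CR1int cells the 22 became 47 with the block, 0 with no dim filter, 14 after centring (9 and 5, from 12 and 10), 8 after quantile normalization, 4 with no intensity trend and 0 with every probe set. The 1 gene between CX3CR1int and CX3CR1low cells became 0 with the block, no dim filter, quantile normalization, no intensity trend, every probe set or only the 2 subsets, while 759 genes had an unadjusted limma p below 0.05. By the F test the 29 became 79 with the block, 14 with no dim filter and 0 with every probe set. With 1 sample left out the 4 counts ranged from 0 to 39, 0 to 18, 0 to 0 and 0 to 17, and the loss was complete for all 4 without replicate 1 of CX3CR1high. The cause of these shifts was not tested. With 2 samples a subset, a 2-fold difference lies within an interval of P2ry6, P2ry14 and Ptger2, and Adora3 and P2ry10 lie near the dim level.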
